A study of Mus musculus with 8 samples.

Results

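The genes described here are the Slit ligands *Slit1*, *Slit2* and *Slit3*, the receptors *Robo1*, *Robo2* and *Robo4*, and the Slit-Robo GTPase-activating proteins *Srgap1*, *Srgap2* and *Srgap3*. They were matched by gene symbol, and all 9 of 9 were found among the 53465 genes of the count table. Poly(A) RNA from mouse heart ventricles at embryonic day 15.5 (E15.5) was sequenced in 2 genotypes with 4 libraries each. The 4 *Nrg1GOF* libraries came from embryos labelled Rosa26Nrg-1 with a cardiac Cre driver, which the series title gives as Nkx2.5-Cre and the genotype label as Nkx5.5-Cre. In such embryos the Cre recombinase switches on a neuregulin-1 transgene at the Rosa26 locus. The 4 control libraries are labelled WT, and the labels do not say whether these embryos carried the transgene or the driver alone. Each library stands for 1 ventricle sample, and whether that was 1 embryo or a pool is not stated. Nkx2.5-Cre acts in the cardiac lineage from early stages and is not limited to 1 layer of the wall, and the ventricle is a mixture of cardiomyocytes, endothelium, fibroblasts and other cells. In bulk RNA, more or fewer cells of a type and more or less RNA per cell cannot be told apart.

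Slits are large secreted proteins that bind the immunoglobulin domains of Robo receptors, and heparan sulphate proteoglycans such as syndecans and glypicans hold the ligand at the receptor. Robo receptors have no enzyme activity of their own. They act through cytoplasmic adaptors, among them the Srgap proteins, which bind the receptor tail and switch off small GTPases of the cytoskeleton, and through Ena/VASP proteins, Abl kinases and the Nck-Pak module. The pathway is best known for repelling axons at the midline of the nervous system. In the embryonic heart, loss of Slit or Robo genes in mice is known to disturb the septa, valves, pericardium and caval veins, and *Slit2* marks the trabecular myocardium. *Robo4* is a receptor of endothelial cells.

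The Slit genes also carry a regulatory RNA. Precursors of the microRNA miR-218 lie inside *Slit2* and *Slit3*, each in intron 14 of a transcript with 36 exons and on the strand of its host (*Mir218-1* at chr5:48223942-48224051 and *Mir218-2* at chr11:35616816-35616925, GRCm38.p6, plus strand, RefSeq). Both give the same mature 5p sequence, which is shown because matches to its seed were searched in the transcripts of these genes. Its seed, bases 2 to 8, is in capitals.

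miR-218-5p: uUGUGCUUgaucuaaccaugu

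The complement of the seed, AAGCACA, was searched in the 3′ untranslated region (UTR) of the GENCODE M21 protein-coding transcript with the longest UTR, 1 per gene. It occurred in 2900 of 21004 UTRs (13.8%). The UTRs of *Slit2* and *Robo2* held 2 matches each and those of *Robo1*, *Srgap2* and *Srgap3* held 1 each, while those of *Slit1*, *Slit3*, *Robo4* and *Srgap1* held none. These UTRs differ in length, from 365 bases in *Slit3* to 4817 in *Srgap3*, and among UTRs within 20% of the same length the share with a match was 32.9% for *Slit2*, 18.1% for *Robo1*, 37.3% for *Robo2*, 38.2% for *Srgap2* and 42.7% for *Srgap3*. For the genes without a match that share was 11.1% for *Slit1*, 3.15% for *Slit3*, 18.2% for *Robo4* and 39.9% for *Srgap1*. The matches in the receptors and in the 2 Srgap genes are printed as a site and its flanks, 25 bases each, with the seed match in capitals (GRCm38, read on the strand of the gene). In order they lie at chr16:73045334-73045358 (plus), chr16:73895355-73895379 (minus), chr16:73893029-73893053 (minus), chr1:131286518-131286542 (minus) and chr6:112720237-112720261 (minus).

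*Robo1*: ttttttggttttaaAAGCACAatca

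*Robo2*, proximal: ttttatttggtgatAAGCACAaatc

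*Robo2*, distal: gtcacggcagacccAAGCACAgctt

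*Srgap2*: ttgggaaaaatccaAAGCACAactt

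*Srgap3*: attcacatttagggAAGCACAcaca

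The matches of *Robo1* and *Srgap2* and the proximal match of *Robo2* are followed by an A. A match is a stretch of letters and not a tested site. *Mir218-1* and *Mir218-2* were listed at 0 counts in every library. The level of mature miR-218 was not measured, and no result here rests on it.

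A pair of promoters is shown because *Slit2* and *Robo1* had the largest called changes among these genes. Each is the stretch of 250 bases before the RefSeq transcription start, on GRCm38.p6 and the plus strand, at chr5:47982905-47983154 for *Slit2* and chr16:72662899-72663148 for *Robo1*. The *Robo1* stretch lies within the GENCODE gene, since longer transcripts start further upstream. Capitals mark matches to any of 6 motifs searched on both strands: the GC box GGGCGG, the TATA box TATAAA, the ETS core CCGGAA, the E-box CACGTG, the T-box site GGTGTG and the NKX site CACTTNA.

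*Slit2* promoter: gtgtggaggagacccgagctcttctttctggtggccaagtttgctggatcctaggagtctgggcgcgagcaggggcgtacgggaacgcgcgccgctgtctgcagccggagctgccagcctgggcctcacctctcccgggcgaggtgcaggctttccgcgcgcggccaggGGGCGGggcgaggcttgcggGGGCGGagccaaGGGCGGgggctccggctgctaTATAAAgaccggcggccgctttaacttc

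*Robo1* promoter: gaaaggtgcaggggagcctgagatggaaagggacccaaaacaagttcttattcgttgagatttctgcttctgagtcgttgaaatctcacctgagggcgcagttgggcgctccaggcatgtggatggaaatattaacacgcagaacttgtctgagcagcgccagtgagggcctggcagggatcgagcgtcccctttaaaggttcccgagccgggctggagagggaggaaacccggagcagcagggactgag

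The *Slit2* promoter held 3 GC boxes and a TATA box that ends 23 bases before the start. The *Robo1* promoter held none of the 6 motifs. Over all 32851 mouse promoters of this length a GC box occurred in 32.7%, a TATA box in 12.4%, the ETS core in 12.03%, the E-box in 6.02%, the T-box site in 16.3% and the NKX site in 10.1%. The promoters also differed in base composition, with 69.6% G and C and 25 CG dinucleotides in *Slit2*, 56.0% and 11 in *Robo1*, and medians of 52.4% and 6 over all promoters. Promoters of 8 of the 9 genes were found, 10 in all with 3 for *Robo2*, and the ETS core occurred in none of them. *Slit3* had the most GC boxes (6, of which 2 overlap), *Srgap3* was the other gene with a TATA box, and the promoter of *Robo4* held 1 NKX match.

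The libraries held between 8038641 counts (*Nrg1GOF* 4) and 26786039 counts (WT 1), so that 3 counts, taken as the floor of a library, stood for 0.112 to 0.373 counts-per-million (CPM). Levels are CPM on library sizes scaled by the trimmed mean of M-values (TMM), and ± is the SD over the 4 libraries. *Nrg1*, the targeted gene, checked the labels, with 61.8 ± 1.90 CPM in *Nrg1GOF* and 4.03 ± 0.652 CPM in WT. WT 1 and 2 stood apart from WT 3 and 4: per-gene chi-square, which is 1 for sampling noise alone, was 7.91 and 4.08 within these pairs and 29.6 to 35.3 between them. Among *Nrg1GOF* libraries it was 15.03 to 25.3 for the pairs with *Nrg1GOF* 3 and 4.52 to 12.5 for the others. For a given relative difference the value grows with depth, so pairs with the shallow *Nrg1GOF* 4, the 4.52 among them, read low. *Nrg1GOF* 3 held the highest *Nrg1GOF* level of *Robo2*, *Robo4* and the 3 Srgap genes and the highest fibroblast sum (6410 CPM). Without it the log2 fold changes were 1.89 for *Slit2*, 1.24 for *Robo1*, 0.52 for *Srgap1*, 0.55 for *Srgap2* and 0.71 for *Srgap3*, all 5 still called, and 0.57 for *Robo2* (adjusted p = 0.241). Nothing in the labels accounts for the WT split, so the values of the genes named below are also given against each WT pair where that changes a call. Of 15580 genes tested with edgeR's quasi-likelihood test, 4467 had a Benjamini-Hochberg adjusted p under 0.05 and are described as called (28.7%), 2474 higher (15.9%) and 1993 lower (12.8%) in *Nrg1GOF*. Against that background, 8 of the 9 genes passed the filter on low counts and were tested, and 5 of the 8 were called, all of them higher: *Slit2*, *Robo1*, *Srgap1*, *Srgap2* and *Srgap3*. *Slit1* did not pass the filter. The median log2 fold change of the 8 was 0.69, beside -0.012 over all genes tested. In 6 of the 8, *Slit3* being the sixth, every *Nrg1GOF* library lay above every WT library, which held for 16.6% of all tested genes in this direction, for 14.1% in the other and for 30.7% in either.

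**Figure D1:**
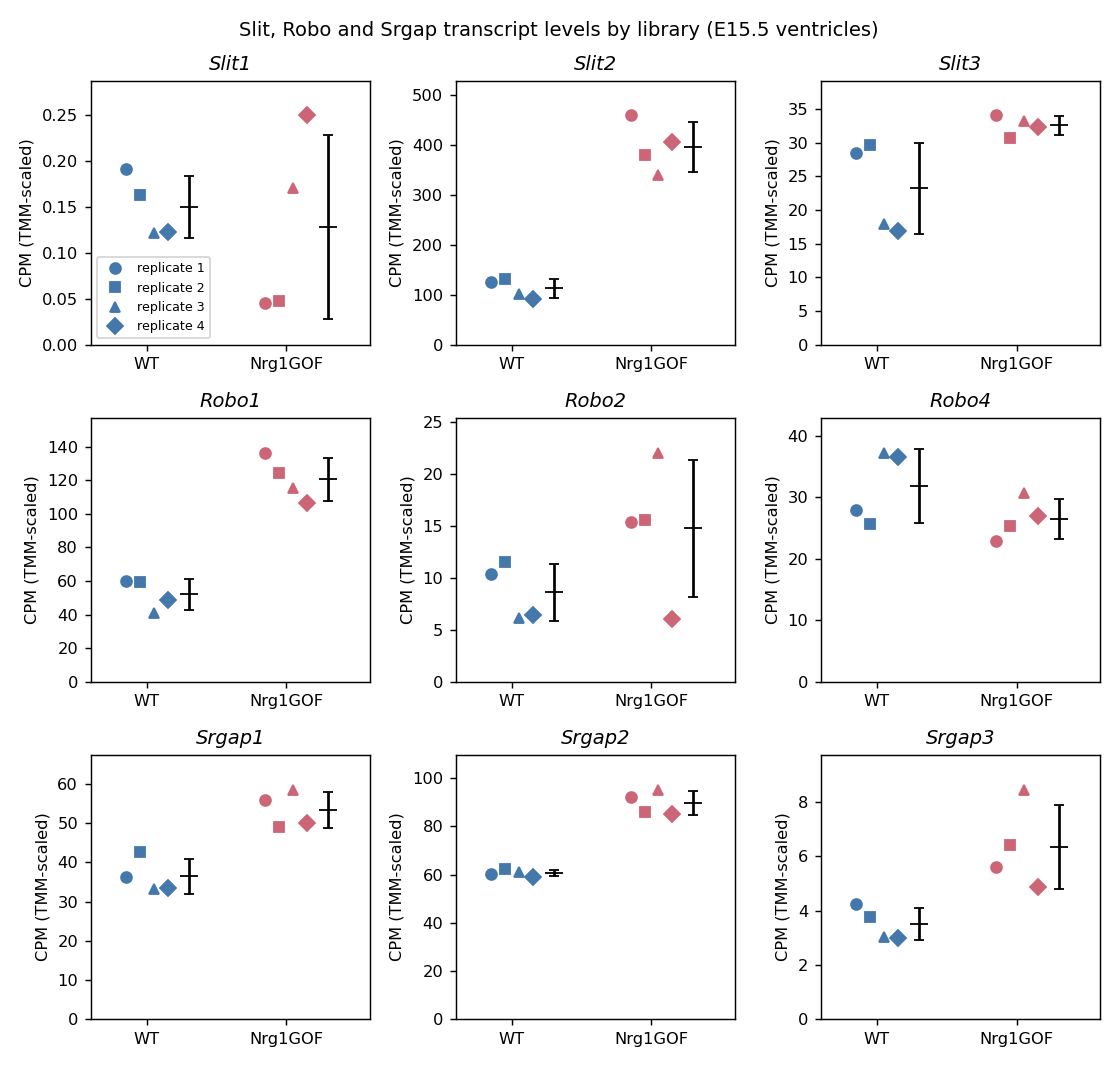
Transcript level in CPM of each of the 9 genes in each library, WT in blue and *Nrg1GOF* in red, with the replicate number given by the symbol and the mean and SD over 4 libraries in black. Each panel has its own scale from 0. *Slit2*, *Slit3*, *Robo1* and the 3 Srgap genes do not overlap between the genotypes, *Slit1*, *Robo2* and *Robo4* do, and WT 1 and 2 sit apart from WT 3 and 4 for *Slit3*, *Robo2* and *Robo4*.

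Among the ligands, *Slit2* changed the most. It was at 125, 132, 102 and 91.4 CPM in WT libraries 1 to 4 and at 459.6, 379.9, 340.2 and 406 CPM in *Nrg1GOF* libraries 1 to 4. The lowest *Nrg1GOF* library was thus well above the highest WT library. The gene (ENSMUSG00000031558, chr5:47983138-48307733, plus strand) rose 3.52-fold, with a log2 fold change of 1.82 (SE 0.13) and an adjusted p of 2.07e-05. Called increases of at least 1 on the log2 scale made up 3.74% of all tested genes. *Slit2* is 1 of the trabecular markers that the study itself followed, so its direction is not independent evidence. In the fit against WT 1 and 2 alone the log2 fold change was 1.62, against WT 3 and 4 alone it was 2.05, and leaving out any single library kept it between 1.73 and 1.90 and called.

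*Slit3*, a second ligand that is known from heart and diaphragm development, moved less (ENSMUSG00000056427, chr11:35121224-35708507, plus strand). Its levels were 28.4, 29.6, 17.9 and 16.9 CPM in WT libraries 1 to 4 and 34.0, 30.7, 33.1 and 32.4 CPM in *Nrg1GOF* libraries 1 to 4. The *Nrg1GOF* libraries lay close together, just above WT 1 and 2 and far above WT 3 and 4. The log2 fold change of 0.49 (SE 0.17) missed the threshold, with an adjusted p of 0.0610. It depended on the WT libraries: the value was 0.17 (adjusted p = 0.166) against WT 1 and 2 alone and 0.91 (adjusted p = 0.000178) against WT 3 and 4 alone, and the gene was called with WT 1 left out (0.61, adjusted p = 0.0348) or WT 2 left out (0.62, adjusted p = 0.0235).

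*Slit1*, the ligand typical of the nervous system, was hardly detected (ENSMUSG00000025020, chr19:41600257-41743665, minus strand). It had 5, 3, 3 and 3 counts in WT libraries 1 to 4 and 1, 1, 4 and 2 counts in *Nrg1GOF* libraries 1 to 4, at or near the floor, and no fold is given. A difference in *Slit1* was not detectable at this depth.

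Among the receptors, *Robo1* rose and the other two did not pass the test. *Robo1* (ENSMUSG00000022883, chr16:72308306-73046095, plus strand) was at 59.8, 59.6, 40.8 and 48.6 CPM in WT libraries 1 to 4 and at 136, 124, 115 and 106 CPM in *Nrg1GOF* libraries 1 to 4. No *Nrg1GOF* library came near the WT range. The gene rose 2.32-fold (log2 fold change 1.21, SE 0.13, adjusted p = 0.000133), with 1.02 against WT 1 and 2 alone and 1.44 against WT 3 and 4 alone. It was called without each of the 8 libraries in turn, at 1.11 to 1.28.

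*Robo2*, the paralogue that acts beside *Robo1* in axon guidance and in the heart, was low and variable (ENSMUSG00000052516, chr16:73891839-74411825, minus strand). Its levels were 10.4, 11.6, 6.19 and 6.39 CPM in WT libraries 1 to 4 and 15.4, 15.6, 22.1 and 6.0 CPM in *Nrg1GOF* libraries 1 to 4. The groups overlapped through *Nrg1GOF* 4, the shallowest library, which gave the lowest value of all 8. The log2 fold change was 0.82 (SE 0.33, adjusted p = 0.0949), and 1.05 (adjusted p = 0.0137) without *Nrg1GOF* 4. It was 0.48 (adjusted p = 0.401) against WT 1 and 2 alone and 1.28 (adjusted p = 0.0377) against WT 3 and 4 alone. The summed level of 5 atrial markers was not low in *Nrg1GOF* 4, at 1776 CPM beside 1623, 1788 and 1688 CPM in *Nrg1GOF* 1 to 3, but most of that sum was *Myl4*, at 1500.1 CPM in *Nrg1GOF* 4. Of the other 4 atrial markers, *Sln* (1.88 CPM), *Myl7* (212 CPM) and *Dkk3* (44.4 CPM) had their lowest *Nrg1GOF* value in that library, as *Robo2* did, while *Stard10* had it in *Nrg1GOF* 1 (16.5 CPM). The same 3 were higher in WT 1 and 2 than in WT 3 and 4, with ratios of pair means of 5.42, 1.70 and 1.80 beside 1.74 for *Robo2*, while *Stard10* stood at 1.34 and *Myl4* at 1.00. Atrial markers were not alone in this. The summed fibroblast and mesenchymal markers were also lowest in *Nrg1GOF* 4, at 4949 CPM beside 5258, 5530 and 6410 CPM in *Nrg1GOF* 1 to 3. That sum was 3524 and 3505 CPM in WT 1 and 2 and 2627 and 2656 CPM in WT 3 and 4. The part of atrial tissue or of fibroblasts in the *Robo2* values was not tested.

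*Robo4*, the endothelial receptor, was the sole tested gene of the 8 with a lower mean in *Nrg1GOF* (ENSMUSG00000032125, chr9:37401897-37415115, plus strand). It was at 27.9, 25.6, 37.2 and 36.6 CPM in WT libraries 1 to 4 and at 22.9, 25.3, 30.7 and 26.9 CPM in *Nrg1GOF* libraries 1 to 4. The groups overlapped, and WT 1 and 2 lay within the *Nrg1GOF* range. The log2 fold change was -0.27 (SE 0.14, adjusted p = 0.177), -0.02 (adjusted p = 0.933) against WT 1 and 2 alone and -0.48 (adjusted p = 0.0131) against WT 3 and 4 alone.

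Because *Robo4* marks endothelium, it was also set against the summed level of 8 other endothelial markers (*Pecam1*, *Cdh5*, *Tie1*, *Tek*, *Kdr*, *Esam*, *Egfl7* and *Emcn*). The sum did not fall with *Robo4*: it was 1109.5 to 1176 CPM in WT and 1208 to 1260 CPM in *Nrg1GOF*, and 3 of the 8 markers, *Tie1*, *Tek* and *Emcn*, were called higher. *Robo4* amounted to 2.47%, 2.31%, 3.17% and 3.17% of that sum in WT libraries 1 to 4 and to 1.82%, 2.04%, 2.54% and 2.14% in *Nrg1GOF* libraries 1 to 4. The groups overlapped, with 2 WT libraries above every *Nrg1GOF* library. On the log2 scale *Nrg1GOF* was lower by a difference of -0.38 (means -5.56 ± 0.20 and -5.18 ± 0.24, n = 4 each), which a two-sided exact permutation test did not separate from the spread between libraries (p = 0.0857, the smallest possible being 0.0286). The size of the difference depended on the WT pair, at -0.17 against WT 1 and 2 alone and -0.58 against WT 3 and 4 alone. With 4 libraries against 2 an exact permutation test cannot go below p = 0.133, so neither value could pass it, and WT 3 and 4 both lay above every *Nrg1GOF* library.

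**Figure D2:**
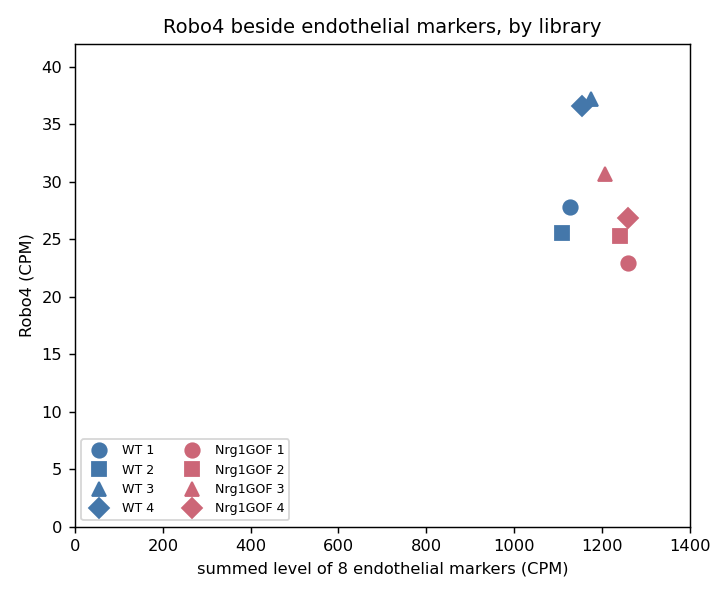
*Robo4* level in CPM (vertical axis) against the summed CPM of 8 endothelial markers (horizontal axis), 1 point per library, WT blue and *Nrg1GOF* red, both axes from 0. The *Nrg1GOF* libraries lie at higher marker sums (1208 to 1260 against 1109.5 to 1176), while *Robo4* runs from 22.9 to 30.7 CPM in *Nrg1GOF* and from 25.6 to 37.2 CPM in WT, with the top values in WT 3 and 4.

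The 3 Srgap genes rose together and by less than *Slit2* or *Robo1*. *Srgap2* (ENSMUSG00000026425, chr1:131285251-131527352, minus strand), known for shaping the leading edge of migrating cells, had the smallest spread of the 9 genes in WT relative to its mean. It was at 60.2, 62.1, 60.9 and 59.0 CPM in WT libraries 1 to 4 and at 92.4, 86.1, 95.3 and 85.3 CPM in *Nrg1GOF* libraries 1 to 4. The groups were far apart, and WT 1 and 2 were not separated from WT 3 and 4. The log2 fold change was 0.57 (SE 0.05, adjusted p = 7.37e-05) and stayed between 0.55 and 0.62 under every alternative without a marker covariate.

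*Srgap1* (ENSMUSG00000020121, chr10:121780991-122047315, minus strand), a regulator of Cdc42 and RhoA, was at 36.3, 42.7, 33.1 and 33.5 CPM in WT libraries 1 to 4 and at 55.9, 49.1, 58.6 and 50.1 CPM in *Nrg1GOF* libraries 1 to 4. The highest WT library, WT 2, stayed below the lowest *Nrg1GOF* library. The log2 fold change was 0.56 (SE 0.09, adjusted p = 0.00168), and 131 of its exonic bases are shared with the unclassified transcript *Gm48804* on the same strand, so reads there could be split.

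*Srgap3* (ENSMUSG00000030257, chr6:112717971-112947266, minus strand), best known from neurons and acting on Rac1, was the lowest of the 3 per length. Its levels were 4.24, 3.76, 3.03 and 2.99 CPM in WT libraries 1 to 4 and 5.63, 6.43, 8.47 and 4.88 CPM in *Nrg1GOF* libraries 1 to 4. The groups did not overlap, and *Nrg1GOF* 4, with 39 counts, came closest to WT. Its annotation shares 150 exonic bases with *Gm44081* on the opposite strand. The log2 fold change was 0.87 (SE 0.20, adjusted p = 0.00882), and the call was lost against WT 1 and 2 alone (0.68, adjusted p = 0.0721) and with each WT pair summed into 1 library (0.87, adjusted p = 0.0523).

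**Figure D3:**
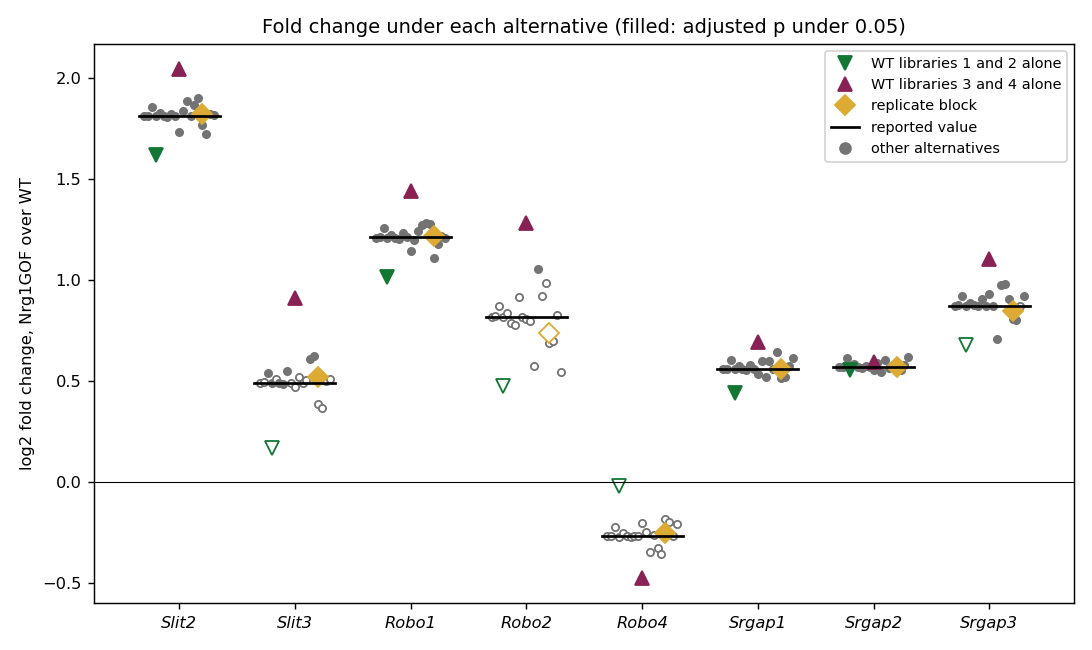
Log2 fold change of *Nrg1GOF* over WT for the 8 tested genes (vertical axis, 1 column of points per gene) under each alternative of scaling, filter, test and sample choice, filled where the adjusted p was under 0.05; fits with a marker covariate are not drawn. *Slit2*, *Robo1*, *Srgap1* and *Srgap2* stayed filled throughout, while *Slit3*, *Robo2* and *Robo4* were filled against WT 3 and 4 alone (purple) and open against WT 1 and 2 alone (green).

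The split between WT pairs ran through most of the family. WT 1 and 2 were both above WT 3 and 4 for *Slit2* (ratio of pair means 1.33), *Slit3* (1.67), *Robo1* (1.34), *Robo2* (1.74), *Srgap1* (1.19) and *Srgap3* (1.33). They were both below for *Robo4* (0.724), and they overlapped for *Srgap2* (1.02). The summed markers of other cell types split as well, with WT 1 and 2 above WT 3 and 4 for fibroblasts, epicardium, endocardium, mural cells, macrophages, erythroid cells and atrium, below for endothelium and the compact layer, and overlapping for cardiomyocytes and the trabecular and conduction list. Single markers within a list differed in how far they split. The ratio of pair means was 1.27 to 1.499 for the 5 fibroblast and mesenchymal markers and 1.00 (*Myl4*) to 5.42 (*Sln*) for the 5 atrial markers, and for the 8 endothelial markers it ran from 0.632 (*Egfl7*) to 1.12 (*Tek*), the other 6 lying at 0.888 to 1.08. The part of these cell types in the split of the Slit, Robo and Srgap genes was not tested. The source of the split cannot be told from the labels. *Slit2*, *Robo1*, *Srgap1* and *Srgap2* were called higher against either pair, and *Slit3*, *Robo2*, *Robo4* and *Srgap3* were called against WT 3 and 4 but not against WT 1 and 2.

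Levels of different genes can be compared per length, here in CPM per kilobase of merged exons. In WT, *Robo4* had the highest mean (6.0 ± 1.13 CPM per kilobase), followed by *Srgap2* (4.82 ± 0.104), *Slit2* (4.43 ± 0.758), *Srgap1* (3.99 ± 0.487), *Slit3* (3.83 ± 1.11) and *Robo1* (3.16 ± 0.560). Each of these neighbours overlapped the next over libraries, so the order of neighbours is not resolved, although *Robo4* and *Srgap2* lay above *Srgap1* and *Robo1* in every WT library. *Robo2* (0.508 ± 0.162) and *Srgap3* (0.356 ± 0.0614) were lower than all of them and overlapped each other, and *Slit1* (0.0253 ± 0.00571) was at the bottom. In *Nrg1GOF*, *Slit2* led at 15.6 ± 1.97 CPM per kilobase and was separate from all others in every library, followed by *Robo1* (7.30 ± 0.777) and *Srgap2* (7.15 ± 0.388), which overlapped. *Srgap1* (5.85 ± 0.499), *Slit3* (5.37 ± 0.232) and *Robo4* (4.99 ± 0.614) came next, each overlapping its neighbour. The scale depends on the gene model: GENCODE lists 23 *Slit2* transcripts whose merged exons span 25433 bases, whereas the longest transcript has 9960, and per length of the longest transcript *Slit2* led in WT too (11.3 ± 1.94 CPM per kilobase).

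The make-up of the ligand and receptor pools differed between the genotypes on either length. *Slit2* made up 51.0% to 57.3% of the summed ligand level per length of merged exons in WT and 70.9% to 76.3% in *Nrg1GOF*. By longest transcript these shares were 69.6% to 74.7% and 84.3% to 87.6%. *Slit2* per length of merged exons stood at 1.05 to 1.35 times *Slit3* in WT and at 2.45 to 3.22 times *Slit3* in *Nrg1GOF*, and by longest transcript at 2.31 to 2.98 and 5.39 to 7.09 times. Among receptors, *Robo4* had 52.9% to 71.3% of the summed level per length of merged exons in WT and 32.0% to 42.7% of it in *Nrg1GOF*. On that scale *Robo1* made up 25.0% to 39.6% in WT and 49.6% to 61.2% in *Nrg1GOF*. By longest transcript the 2 receptors overlapped in WT, *Robo4* at 35.9% to 55.2% and *Robo1* at 39.5% to 54.8%, so which of them led in WT depends on the length used. In *Nrg1GOF* they stood at 18.9% to 26.9% and 63.5% to 73.7% by longest transcript. The ratio of *Robo1* to *Robo4* per length was 0.351 to 0.748 in WT and 1.21 to 1.91 in *Nrg1GOF*. By longest transcript the ratio was 0.717 to 1.53 and 2.46 to 3.90. These shares follow from the changes of *Slit2* and *Robo1* described above and were not tested again. The shares of the 3 Srgap genes among themselves overlapped between the genotypes, with *Srgap2* at 49.4% to 55.2% in WT and 51.0% to 53.2% in *Nrg1GOF*.

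**Figure D4:**
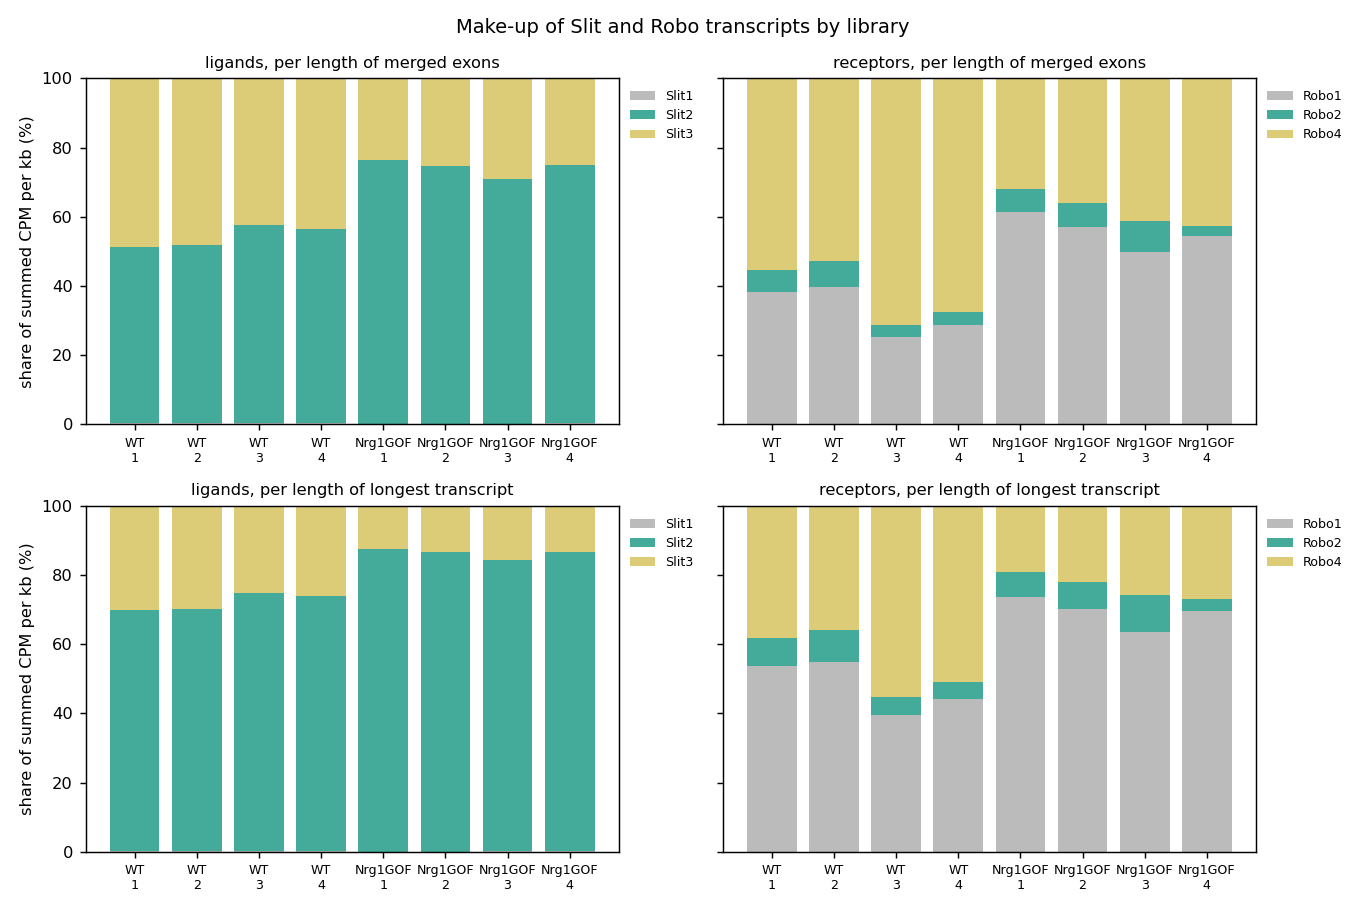
Share (%) of each ligand (left) and receptor (right) in the summed CPM per kilobase of its class, 1 bar per library, with length taken as merged exons (top) or the longest transcript (bottom); *Slit1* is too small to see. *Slit2* takes 70.9% to 76.3% of the ligands in *Nrg1GOF* (top left) against 51.0% to 57.3% in WT, and *Robo1* (grey) takes 49.6% to 61.2% of the receptors (top right) against 25.0% to 39.6%.

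Outside these 9 genes, 35 genes with a role in Slit-Robo signalling were followed, of which 34 were tested. The third axonal receptor gene, *Robo3*, was not, with 0 to 6 counts per library. Of the 34, 9 were called higher and 2 lower, 32.4% of those tested beside the 28.7% over all genes, with a median log2 fold change of 0.13. In 9 of them all *Nrg1GOF* libraries lay above all WT libraries and in 3 below. The share called was thus near the background. With a minimum absolute log2 fold change of 0.5 added to the threshold, 12.9% of all tested genes were called, 6 of the 34 partners and 5 of the 8 tested Slit, Robo and Srgap genes.

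Of the 12 tested binding partners and co-receptors, 5 were called higher and 1 lower. *Sdc4*, syndecan-4, a heparan sulphate proteoglycan of the cell surface, was at 22.9, 19.5, 18.8 and 18.8 CPM in WT libraries 1 to 4 and at 71.4, 74.7, 59.3 and 73.5 CPM in *Nrg1GOF* libraries 1 to 4. All *Nrg1GOF* values were well above the WT range (log2 fold change 1.80, SE 0.09, adjusted p = 3.28e-06). The other syndecans *Sdc3* (0.63) and *Sdc1* (0.31) were called higher as well, *Sdc1* not against WT 1 and 2 alone (0.25, adjusted p = 0.0704), *Sdc2* was at 0.05 (adjusted p = 0.649) and the glypican gene *Gpc1* at 0.14 (adjusted p = 0.0911). *Unc5b*, a netrin receptor that binds Robo4 on vessels, rose from 157 ± 15.6 to 266 ± 29.7 CPM (log2 fold change 0.76, SE 0.09, adjusted p = 0.000348).

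A pair of partners at low levels moved in opposite directions. *Nell2*, a secreted ligand of Robo3, had 8, 8, 4 and 3 counts in WT libraries 1 to 4 and 20, 22, 27 and 15 counts in *Nrg1GOF* libraries 1 to 4, so that its groups did not overlap at a very low level (log2 fold change 2.23, SE 0.41, adjusted p = 0.00312). *Dcc*, the netrin receptor that Robo1 silences in growth cones, had 51, 47, 40 and 41 counts in WT libraries and 31, 18, 16 and 6 in *Nrg1GOF* libraries, also without overlap in CPM (log2 fold change -1.04, SE 0.29, adjusted p = 0.0220). Its call was lost in 3 of the 8 fits that left out 1 library (*Nrg1GOF* 2, *Nrg1GOF* 3 or WT 2), with adjusted p up to 0.0672, and also against WT 3 and 4 alone (-0.80, adjusted p = 0.123) and with WT pairs summed (-1.02, adjusted p = 0.0877). The remaining partners *Flrt3* (-0.04), *Dag1* (0.07), *Plxna1* (0.15) and *Nell1* (-0.01) were not called, *Plxna1* being called against WT 3 and 4 alone (0.38, adjusted p = 0.00249).

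Of the 18 cytoplasmic effectors, 4 were called higher and 1 lower, and most of these changes were small. *Pak1*, a kinase bound by Rac1 and Cdc42, was at 2.71 ± 0.311 CPM in WT and 4.24 ± 1.09 in *Nrg1GOF* (log2 fold change 0.66, SE 0.20, adjusted p = 0.0321), and its call was lost in 5 of 8 fits that left out 1 library, against WT 1 and 2 alone (0.53, adjusted p = 0.180) and with WT pairs summed (0.66, adjusted p = 0.131). *Cap1*, an actin regulator that binds Abl, rose from 124 ± 8.57 to 162 ± 5.54 CPM (0.39, SE 0.06, adjusted p = 0.00114). The GTPase genes *Rac1* (0.18, adjusted p = 0.0273) and *Cdc42* (0.17, adjusted p = 0.0401) were called higher at about 1.1-fold, and *Rhoa* was at 0.10 (adjusted p = 0.199). *Rac1* lost its call in 4 of 8 fits that left out 1 library and was called against neither WT 1 and 2 alone (0.15, adjusted p = 0.174) nor WT 3 and 4 alone (0.20, adjusted p = 0.0560), nor with WT pairs summed. *Cdc42* lost its call in 7 of those 8 fits, against WT 1 and 2 alone (0.13, adjusted p = 0.271) and with WT pairs summed (0.17, adjusted p = 0.178). *Arhgap39*, the mammalian counterpart of the fly Robo effector Vilse, fell from 24.2 ± 1.54 to 18.8 ± 1.86 CPM (-0.36, SE 0.09, adjusted p = 0.0108), a call that was lost against WT 1 and 2 alone (-0.29, adjusted p = 0.0969) and with WT pairs summed (-0.36, adjusted p = 0.0744). The Ena/VASP genes (*Enah*, *Vasp*, *Evl*), the Abl kinases, the Nck adaptors, *Pak2*, *Pak3*, *Myo9b*, *Sos1* and *Sos2* were not called, with log2 fold changes from -0.11 to 0.17. Against WT 3 and 4 alone *Enah* (0.27, adjusted p = 0.0153), *Abl2* (0.42, adjusted p = 0.00613) and *Pak3* (0.53, adjusted p = 0.0274) were called higher.

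Of the 4 genes for turnover and trafficking of Robo receptors, 0 were called by edgeR, and 0 had an unadjusted p under 0.05. They were *Usp33* (log2 fold change -0.15), *Ndfip1* (0.13), *Ndfip2* (0.11) and *Prrg4* (0.09).

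**Figure D5:**
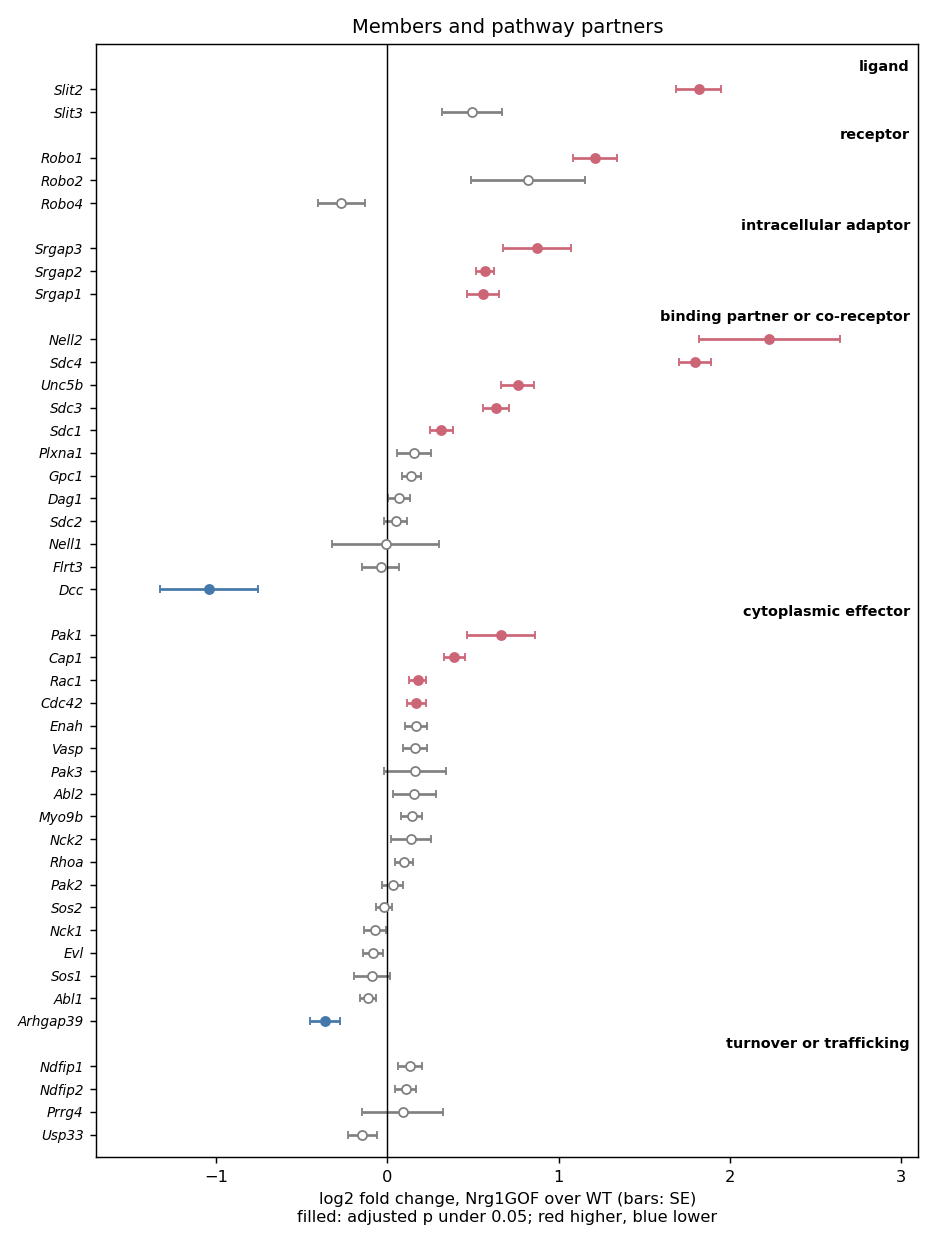
Log2 fold change of *Nrg1GOF* over WT with its SE (horizontal axis) for the 8 tested Slit, Robo and Srgap genes and 34 partners, grouped by role; filled points had an adjusted p under 0.05, red higher and blue lower. *Slit2*, *Robo1*, *Nell2* and *Sdc4* lie beyond 1, *Dcc* below -1, and most effectors lie close to 0.

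Markers of several cell types moved with the genotype as well. All 9 genes of the trabecular and conduction list that the study followed beside *Slit2* were called higher. Their summed level was 1310 to 1451 CPM in WT and 3969 to 6450 CPM in *Nrg1GOF*. Most of that sum was *Nppa*, at 771 to 877 CPM in WT and 3142 to 5523 CPM in *Nrg1GOF*. The study chose these genes, so their direction is not independent evidence. *Cgnl1* among them is not specific to muscle in the mouse heart, being also a gene of the endocardium. The compact layer marker *Hey2* fell from 187 to 52.9 CPM. Of 6 cardiomyocyte markers, 3 were lower and 0 higher (42536 to 43683 CPM in WT, 34143 to 40860 CPM in *Nrg1GOF*). All 5 fibroblast and mesenchymal markers were higher (2627 to 3524 CPM, then 4949 to 6410), as were all 4 macrophage markers (29.2 to 32.5 CPM, then 60.7 to 69.9), 2 of 3 endocardial markers (160 to 181 CPM, then 231 to 275) and 3 of 5 atrial markers (989 to 1132 CPM, then 1623 to 1788). The atrial sum was mostly *Myl4*, at 839 to 885 CPM in WT and 1186 to 1500 CPM in *Nrg1GOF*. Of 5 epicardial markers 3 were higher and 1 lower (149 to 167 CPM, then 200 to 212), and of 4 mural markers 2 were higher and 2 lower, their sums overlapping. Of the 5 erythroid markers, 0 were called, and their sums overlapped (4370 to 12945 CPM and 5371 to 8832 CPM). *Tubb3*, a neuronal tubulin, rose from 0.442 ± 0.109 to 2.07 ± 1.02 CPM (log2 fold change 2.26, SE 0.41, adjusted p = 0.00266) without overlap. The part of cell composition in the rises of *Slit2*, *Robo1* and the Srgap genes was not tested.

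When the summed atrial or the summed fibroblast markers were added to the edgeR fit as a covariate, a choice made after seeing the data, 0 of the 8 genes were called. With the atrial covariate 1 of the 8 had an unadjusted p under 0.05, and 0 of all 15580 genes were called, with 1100 at an unadjusted p under 0.05. With the fibroblast covariate 4 of the 8 had an unadjusted p under 0.05, and 113 of all genes were called. With the endothelial sum 7 of the 8 genes were called, *Robo4* being the exception, and 1174 of all genes, beside 4467 without a covariate. The atrial sum was mostly *Myl4* in every library. All 3 sums separate the genotypes without overlap, so the covariate and the genotype cannot be told apart in these libraries.

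The genes whose level ran most like that of each member were ranked over the 8 libraries by the Pearson correlation of log2 CPM among 12176 protein-coding genes with an average log2 CPM of at least 1. All points share the genotype contrast and the WT split, so high values are common: 1188 genes reached 0.9 with *Slit2*, 1121 with *Robo1*, 972 with *Srgap2*, 680 with *Srgap1*, 427 with *Srgap3*, 396 with *Robo4*, 361 with *Slit3* and 79 with *Robo2*. Closest to *Slit2* were *Fam49a* (r = 0.998), *Yipf5* (0.998) and *Ccdc80* (0.997). Closest to *Robo1* were *Nt5e* (0.999), *Tent5a* (0.994) and *Tgfb2* (0.994), a ligand of the transforming growth factor family. *Slit3* ran with *Itpr1* (0.991), *Cdon* (0.987) and *Fat4* (0.987), and *Robo2* with *Etnk1* (0.989), *Cacna1d* (0.973) and *Kcnq3* (0.972). *Robo4* ran with *Ushbp1* (0.993), *Prpf40b* (0.991) and *Stx4a* (0.989). None of these neighbours of *Slit3* and *Robo4* was called, and of those of *Robo2* only *Cacna1d* was. For the Srgap genes the closest were *Rybp* (0.986), *Ebf1* (0.986) and *Gfpt1* (0.985) with *Srgap1*, *Mast2* (0.995), *Slc1a4* (0.994) and *Dab2* (0.992) with *Srgap2*, and *Islr* (0.994), *Kif7* (0.990) and *Frzb* (0.986) with *Srgap3*. After the group means were removed, these correlations were 0.799 to 0.993.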

How the data were processed

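RNA from 8 samples of mouse heart ventricles at E15.5, 4 *Nrg1GOF* and 4 WT, was measured by directional poly(A) RNA-seq with single reads. The authors deposited expected counts per gene made with RSEM 1.3.1 on GRCm38, after trimming that their processing notes list as cutadapt. The aligner and the strand setting are not given in the sources used here. Expected counts share reads that fit several genes between them, so 8.42% to 13.2% of the values per library were not whole. No scaling for depth or gene length had been applied. Group and replicate number came from the sample titles. No per-sample column was left out.

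The 53465 gene identifiers were matched to symbols, coordinates and exon lengths in GENCODE M21 (GRCm38), 53274 of them with success, while 191 were used by identifier alone. Promoters and miRNAs came from RefSeq tables (GRCm38.p6). Counts were rounded, filtered with filterByExpr, scaled by TMM and compared between genotypes with the quasi-likelihood F-test of edgeR (4.0.16, R 4.3.3), with no term but genotype. The study likewise fitted edgeR models at an FDR of 0.05. Adjusted p is the Benjamini-Hochberg value across the 15580 tested genes. The SE was taken as |log2 fold change| over the root of F. Log2 CPM used a prior count of 2. The script was tested on simulated data. *Robo4* relative to endothelial markers was tested by an exact permutation test (SciPy 1.17.1). All tests were two-sided. The labels list separate samples but do not say whether each is 1 embryo or a pool, nor give litters or batches, so p-values measure the spread between these samples, which may be technical. Libraries of 1 group differed by more than sampling noise in every pair. Repeat preparations of 1 sample can differ in this way too, so that check cannot tell them from separate embryos. Each library was counted as 1 replicate.

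The Slit, Robo and Srgap genes, the partner list and the marker lists were chosen with earlier results of these data known. Of 1 marker list (nerve and glia) only *Tubb3* is reported here. Partners named with full statistics were, within each role, the 3 highest among those called higher and the 3 lowest among those called lower, plus others named by value only. Genes most like a member were the 3 protein-coding genes with the highest correlation. Alternatives were 3 scalings, 2 filters, unrounded counts, the likelihood ratio test, DESeq2 (1.42.0), limma-voom (limma 3.58.1), a replicate block, stricter thresholds, each WT pair alone, WT pairs summed, thinning to the smallest library, the longest transcript as length, and leaving out each library in turn. The 3 covariates of marker sums and the minimum log2 fold change were added after seeing the data. Totals ranged from 8038641 to 26786039 counts. Without molecular identifiers, PCR duplicates cannot be told from molecules, and floors express counting error alone.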

Additional observations from a re-analysis of the deposited data

Results flagged for a closer look

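Of 62 groups of 4 values examined, which were the library totals and the levels of the genes and marker sums by genotype, 1 held a library that lay apart from the other 3, where chance alone would give 3.1. It was the total of *Nrg1GOF* 4, at 8038641 counts against 20578081 to 22547833 in the other *Nrg1GOF* libraries, a gap of 0.864 of the range and past Dixon's 95% limit. No level of a Slit, Robo or Srgap gene stood apart in this way. Without this library the log2 fold change was 1.81 for *Slit2* and 1.27 for *Robo1*, and *Robo2*, which had 48 counts there, became called.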

How the results depend on the processing

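Of 613 values recomputed under the alternatives, 506 were classed as unchanged, and the cause of the other changes was not tested. For a tested difference, unchanged meant the same sign and the same side of the threshold. For a share per length it meant a move smaller than the SD between libraries. For a count of called genes it meant a count within a set factor of the reported one. That rule is loose: 3239 of all genes called, beside 4467 reported, was classed as unchanged. *Slit2*, *Robo1*, *Srgap1* and *Srgap2* kept their call and direction under all alternatives without a marker covariate. Leaving out each library in turn gave log2 fold changes of 1.73 to 1.90 for *Slit2*, 0.36 to 0.62 for *Slit3*, 1.11 to 1.28 for *Robo1*, 0.57 to 1.05 for *Robo2*, -0.36 to -0.19 for *Robo4*, 0.51 to 0.64 for *Srgap1*, 0.55 to 0.60 for *Srgap2* and 0.71 to 0.98 for *Srgap3*. It called 5 to 6 of the 8 genes, 7 to 11 partners (1 to 2 lower, 7 without *Nrg1GOF* 2) and 3239 to 4261 of all genes. *Vasp* (without *Nrg1GOF* 1), *Gpc1* and *Abl1* (without *Nrg1GOF* 3) and *Enah* (without WT 2) were each called in 1 of these fits.

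*Slit3* became called under scaling by library total (0.54, adjusted p = 0.0416), without a filter on low counts (0.49, 0.0423), with the likelihood ratio test (0.49, 0.0300), DESeq2 (0.48, 0.0334) and limma-voom (0.55, 0.0378). Against WT 3 and 4 alone *Slit3* (0.91), *Robo2* (1.28) and *Robo4* (-0.48) became called, giving 8 of 8 genes with 1 lower, 13 partners (12 higher, 1 lower) and 4487 of 16209 genes. Against WT 1 and 2 alone *Srgap3* (0.68) lost its call, and 6 partners were called (5 higher, 1 lower). With WT pairs summed *Srgap3* (0.87) lost its call, 6 partners were called with 0 lower (2 lower at an unadjusted p under 0.05), and all calls numbered 2464. At an adjusted p under 0.01 the partners called were 6, with 0 lower, and with a minimum log2 fold change of 0.5 they were 6 (5 higher, 1 lower). Thinning to the smallest library ended the call of *Pak1* (0.46, adjusted p = 0.242). *Rac1* and *Cdc42* lost theirs without a filter on low counts (adjusted p = 0.0875 and 0.122) and with the likelihood ratio test (0.0510 and 0.0741), and *Cdc42* under RLE scaling (0.0522). Scaling by library total moved the median of all genes from -0.012 to 0.033 and the higher share among calls from 55.4% to 65.4% (2874 higher, 1521 lower), and called 14 partners (12 higher, 2 lower), *Gpc1* (0.18, adjusted p = 0.0224), *Enah* (0.21, 0.0298) and *Rhoa* (0.14, 0.0427) being added. Per length of the longest transcript, *Slit2* made up a mean of 72.0% of ligands in WT and 86.3% in *Nrg1GOF*, against 54.0% and 74.2% per merged exons.

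The titles do not say whether equal replicate numbers pair the samples. Deviations from the group means correlated at 0.049 to 0.199 (mean 0.111) for equal numbers, 2 of 4 above 0.1. For different numbers they correlated at -0.263 to 0.187 (mean -0.037), 3 of 12 above 0.1. Not every library correlated best with its own number. So few values with overlapping ranges cannot decide whether the numbers pair samples. With the replicate block *Slit3* (0.52, adjusted p = 0.0368) and *Robo4* (-0.25, adjusted p = 0.0466) became called, giving 7 of 8 genes with 1 lower, *Pak1* lost its call (0.63, adjusted p = 0.0610), and all calls numbered 4524.

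With the atrial covariate the log2 fold changes were 1.09 for *Slit2*, 0.58 for *Robo1*, 0.53 for *Srgap1* and 0.77 for *Srgap2*, and those of *Slit3* (-1.16), *Robo2* (-0.0054), *Robo4* (0.80) and *Srgap3* (-0.16) changed sign. It left 0 calls by edgeR among the 8 genes, the partners (1 at an unadjusted p under 0.05) and all genes. With the fibroblast covariate they were 1.47 for *Slit2*, 0.62 for *Robo1*, 0.081 for *Srgap1* and 0.43 for *Srgap2*, with sign changes for *Slit3* (-0.54), *Robo2* (-1.28), *Robo4* (0.21) and *Srgap3* (-0.30). It left 0 of the 8 genes, 1 partner (1 higher, 0 lower) and 113 of all genes called. With the endothelial covariate *Slit3* (1.31) and *Robo2* (2.43) became called, with 4 partners (4 higher, 0 lower) and 1174 of all genes. All 3 sums separate the genotypes without overlap.

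Depth limits *Slit1*, *Robo3*, *Nell2* and *Dcc*, which had few counts, and the shallow *Nrg1GOF* 4. Bulk libraries of 1 stage do not show which cells hold the transcripts.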
